A study of Mus musculus with 32 samples.

Results

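The genes described here are 7 genes of liver glycogen metabolism: the enzymes Ugp2, Gys2, Gbe1 and Pygl, and the protein phosphatase 1 (PP1) targeting subunits Ppp1r3b, Ppp1r3c and Ppp1r3g. They were taken by name from the 55471 genes of the count table, and all 7 were among the 14456 genes tested. The rule used no measured value, but genes and lists were chosen with earlier results of these data known. Liver RNA was measured by poly-A RNA sequencing in 32 male C3H/HeNCrl mice, all on a high fat diet, which lived in a short light (SL) or a long light (LL) photoperiod. Livers were taken at zeitgeber time (ZT) 0, 6, 12 or 18 h, which gives 8 groups of 4 libraries: SL ZT0, SL ZT6, SL ZT12, SL ZT18, LL ZT0, LL ZT6, LL ZT12 and LL ZT18. Every group carried the same strain, sex and diet, so photoperiod and time were the only labelled differences. The hours of light in each photoperiod, the event that defines ZT0 and the age of the mice were not given in the sources used here.

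Glycogen is the glucose store of the hepatocyte, filled after feeding and emptied in fasting. UGP2 makes the UDP-glucose from which the liver glycogen synthase GYS2 lengthens glycogen chains, and GBE1 adds their branches. PYGL, the liver glycogen phosphorylase, releases glucose 1-phosphate from the chains. The PPP1R3 subunits tether PP1 to the glycogen particle, where dephosphorylation activates the synthase and inactivates the phosphorylase. PPP1R3B (GL) is the classical liver subunit and PPP1R3C is also known as protein targeting to glycogen. PPP1R3G is a further glycogen-targeting subunit described in liver.

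The libraries held between 9095615 and 27462776 counted reads, with a median of 15665632. The third replicate of LL ZT12 stood apart: its mean correlation with its group mates was 0.969, against 0.981 to 0.989 for the other libraries. The summed level of 8 hepatocyte markers lay between 106600 and 139350 CPM (library-scaled counts, the reads of a gene relative to the scaled total of its library) in every library. The summed level of 8 skeletal muscle markers ranged from 0.327 to 205 CPM around a median of 1.12, with 10.7 to 205 CPM at LL ZT18 and a sum of 97.1 CPM in the second replicate of LL ZT0. Of 8 hepatocyte markers 4 were called for the interaction of photoperiod with time, and of 6 sinusoidal endothelial markers 4 (32.7% of all genes). It was called in 0 of 7 tested muscle, 0 of 7 Kupffer cell, 0 of 6 stellate and fibroblast and 0 of 2 erythroid markers. Cholangiocyte markers gave 1 of 5, adipocyte markers 1 of 2 tested and pancreatic acinar markers 1 of 1 tested. The summed endothelial level was 274 to 315 CPM in SL and 325 to 365 in LL at ZT0, and 318 to 361 in SL and 221 to 314 in LL at ZT12, and the part of these markers in the results below was not tested. No marker of the muscle list was at 0 in all libraries. All 7 of its tested members were called for time of day in LL (18.3% of all genes) and 0 of 7 in SL (19.1%). Values below are therefore also given without the third replicate of LL ZT12, or without this library, LL ZT0 replicate 2 and LL ZT18 replicate 3 together, where that changes a call. Each library is labelled as a separate sample, and in whole liver fewer cells of a type and less RNA per cell cannot be told apart.

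For 6 of the 7 genes, all but Gbe1, the difference between the photoperiods depended on the time of day, with Pygl close to the threshold. Glycogen synthase Gys2 and the subunit Ppp1r3g were higher in SL at ZT0 and ZT6 and lower at ZT12 and ZT18, and Ppp1r3c went the opposite way at each of these times. Ppp1r3b was higher in SL at ZT6 and lower at ZT18, and Ugp2 was lower in SL at ZT12. Pygl and Gbe1 did not pass the test at any single time. Differences are given as log2 fold changes of SL over LL from edgeR's quasi-likelihood test, with Benjamini-Hochberg adjusted p-values over all 14456 genes and calls at an adjusted p under 0.05.

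**Figure D1:**
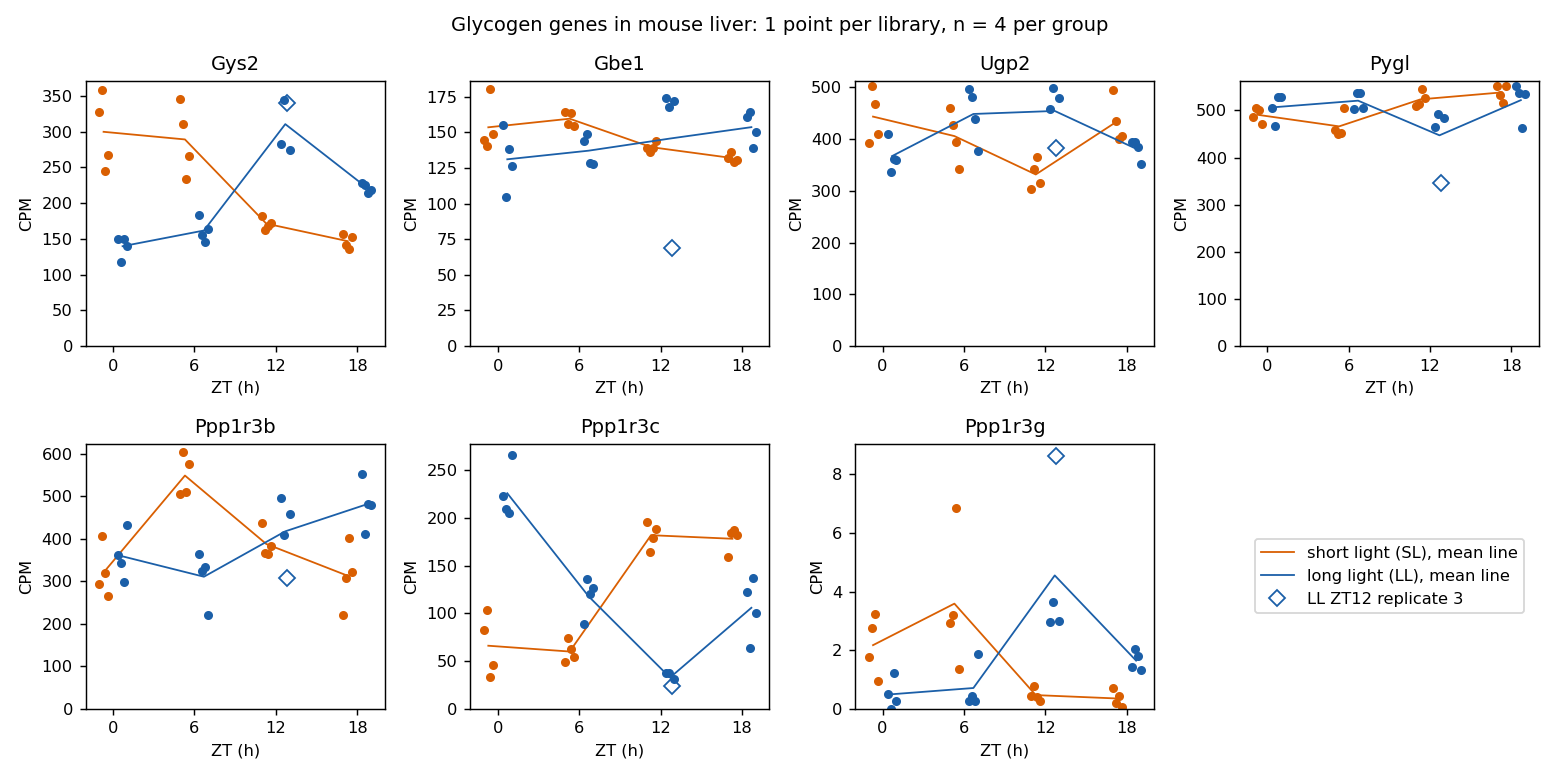
CPM (vertical axis, linear, separate scale for each gene) of the 7 genes against zeitgeber time in h. Points are single libraries, 4 per group, the open diamond is LL ZT12 replicate 3, and lines join the group means of SL and LL. Gys2 runs high in SL at ZT0 and ZT6 and in LL at ZT12 and ZT18, and Ppp1r3c the other way. The group means of Pygl and Gbe1 stay within a narrow band, with 1 low LL ZT12 library in each.

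Time of day alone was called in 5 of the 7 genes in SL, where 19.1% of all tested genes were called, and in 5 of 7 in LL, where 18.3% were called. The 5 genes were Gys2, Ppp1r3b, Ppp1r3c, Ppp1r3g and Ugp2 in both. The interaction of photoperiod with time was called in 6 of 7, all but Gbe1, against 32.7% of all genes. At ZT0, where 11% of all genes were called, 2 of the 7 were higher in SL and 1 was lower (6.07% and 4.97% of all genes). At ZT6, where 15.3% were called, 3 were higher and 1 was lower (6.90% and 8.38%). At ZT12, where 12.4% were called, 1 was higher and 3 were lower (6.05% and 6.40%). At ZT18, where 9.21% were called, again 1 was higher and 3 were lower (4.82% and 4.39%). The median log2 difference over the 7 genes was 0.23, 0.22, -0.11 and -0.22 at ZT0, ZT6, ZT12 and ZT18, while the median over all tested genes stayed between -0.01 and 0.01. The 7 genes went in both directions at each time. Each median was the value of a gene not called at that time, Gbe1 at ZT0, ZT6 and ZT18 and Ppp1r3b at ZT12.

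Without the third replicate of LL ZT12 all 7 genes were called for time of day in SL (26.9% of all genes), for the interaction (38.7%) and for a difference in 24 h rhythm (41.1%), and 6 were called for time of day in LL (21.2%). Pygl and Gbe1 joined the SL calls, and Gbe1 the other 3. The single times then called 4 of 7 at ZT0 (15.4% of all genes), 5 at ZT6 (20.9%), 5 at ZT12 (11.5%) and 4 at ZT18 (13.5%). Without all 3 libraries that stood apart, the counts were 7 for time of day in SL (27.5%), 6 in LL (18.9%), 7 for the interaction (37.3%) and 7 for the rhythm (38.2%). At the single times they were then 2 at ZT0 (13.3%), 6 at ZT6 (21.5%), 5 at ZT12 (11.9%) and 5 at ZT18 (11.2%).

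**Figure D2:**
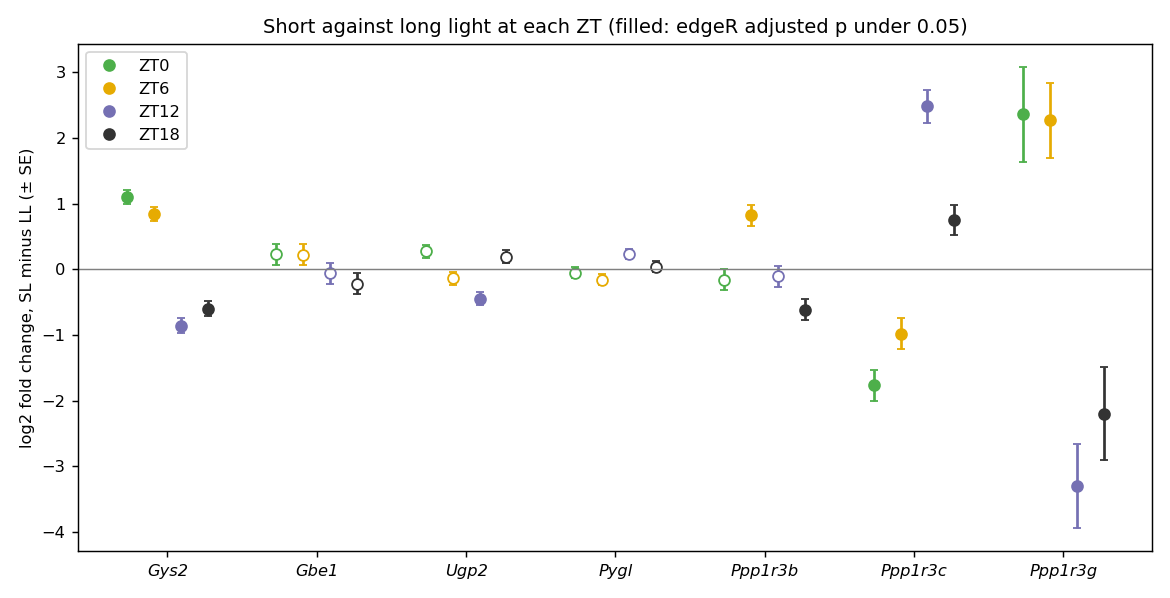
Log2 fold change of SL over LL (vertical axis) for each gene (horizontal axis) at ZT0, ZT6, ZT12 and ZT18, by colour. Points are edgeR estimates, bars their standard errors, and filled points passed an adjusted p under 0.05. The signs of Gys2, Ppp1r3g and Ppp1r3c all change between ZT6 and ZT12, with Ppp1r3c opposite to the other two.

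Averaged over the 4 times, the photoperiods differed in 0 of the 7 genes and in 0 of the 14456 genes (edgeR), a share of 0%. Before adjustment, 1 of the 7 and 730 of all genes were under 0.05. The 1 was Gys2, at a log2 difference of 0.12 ± 0.06 (SE, edgeR adjusted p = 0.965). DESeq2 called 0 of the 7 and 6 genes in all, and limma-voom called 0 of both. With edgeR and without the third replicate of LL ZT12, 0 of the 7 and 0.0205% of all genes were called, and 0 of the 7 and 0.0137% without the 3 libraries that stood apart. The other 6 averages lay between -0.22 ± 0.35 (Ppp1r3g) and 0.12 (Ppp1r3c).

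On the scale of mean CPM per kb of exon, the order of levels was Ugp2 at 133, Gys2 at 81.9, Pygl at 72.8, Ppp1r3b at 63.1, Ppp1r3c at 44.4, Gbe1 at 26.9 and Ppp1r3g at 0.649. Ppp1r3b was thus the subunit with the highest overall level per kb. Over the 8 groups the mean level of Ppp1r3c per kb spanned 12.0 to 82.8, and that of Ppp1r3g 0.131 to 1.69. Ppp1r3g had 0 to 191 reads per library, so that counting error weighs more in it than in the others.

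Gys2, the liver glycogen synthase that lengthens glycogen chains, changed with time in both photoperiods, with its high and low times exchanged between them. In SL the 4 libraries held 328, 359, 246 and 267 CPM at ZT0, 346, 311, 234 and 266 at ZT6, 183, 163, 168 and 172 at ZT12, and 157, 142, 136 and 152 at ZT18. In LL they held 150.3, 118, 150.4 and 140.4 CPM at ZT0, 183, 155, 145 and 163 at ZT6, 283, 344, 340.1 and 275 at ZT12, and 229, 226, 215 and 219 at ZT18. The libraries of SL ZT0, SL ZT6 and LL ZT12 were the high ones and overlapped each other, LL ZT18 lay below them without overlap, and SL ZT12, LL ZT6, SL ZT18 and LL ZT0 formed a low, overlapping chain. SL and LL did not overlap at any of the 4 times. Means were 300.0 ± 52.6 CPM in SL against 139.8 ± 15.2 in LL at ZT0 (SD, n = 4), and 171 ± 8.39 against 311 ± 36.7 at ZT12.

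The log2 difference of Gys2 was 1.10 ± 0.11 (SE) at ZT0, or 2.15-fold higher in SL (adjusted p = 4.30e-08). At ZT6 it was 0.84 ± 0.11, or 1.79-fold (adjusted p = 3.64e-06). The direction then turned, with -0.86 ± 0.11 at ZT12 (adjusted p = 2.74e-06) and -0.60 ± 0.11 at ZT18 (adjusted p = 0.000643). The highest time was 2.04-fold over the lowest in SL (ZT0 over ZT18) and 2.22-fold in LL (ZT12 over ZT0), and the adjusted p for time of day was 1.53e-08 and 2.04e-08. A wave of 24 h drawn through the 4 times had a log2 amplitude of 0.62 ± 0.06 (SE) in each photoperiod and had its peak at 3.37 ± 0.36 h for SL and at 13.46 ± 0.36 h for LL. Over the 1752 genes called for time of day in both photoperiods, the median amplitude was 0.36 in SL and 0.34 in LL. Samples were 6 h apart, so these peak times describe the 4 points and do not resolve the course between them.

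Ugp2, which supplies the UDP-glucose used by the synthase, moved over a smaller range. In SL its libraries held 393, 502, 468 and 409.8 CPM at ZT0, 460.4, 426, 395 and 341 at ZT6, 304, 341, 366 and 315 at ZT12, and 494, 435, 401 and 407 at ZT18. In LL they held 409, 337, 361 and 360.3 CPM at ZT0, 496, 481, 439 and 377 at ZT6, 458, 498, 382 and 479 at ZT12, and 395, 394, 384 and 352 at ZT18. All neighbours in the order of the 8 group means overlapped, and SL and LL were apart at ZT12, where every SL library was below every LL library, and at ZT18, where every SL library was above. At ZT12 SL had 331 ± 27.8 CPM and LL 454 ± 50.6 (SD, n = 4), a log2 difference of -0.45 ± 0.10 (SE, adjusted p = 0.00278). At ZT18 the difference was 0.19 ± 0.10 (adjusted p = 0.301) and at ZT0 0.27 ± 0.10 (adjusted p = 0.0895, 0.0466 without the third replicate of LL ZT12, and 0.143 without the 3 libraries that stood apart). The adjusted p for time of day was 0.0116 in SL and 0.0459 in LL. Leaving out single libraries moved the LL value between 0.0111 and 0.0986, and the call was lost in 21 of the 32 fits. The SL call was lost without SL ZT12 replicate 1 (0.0594) or replicate 4 (0.0514).

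Gbe1, the branching enzyme, had group means within a narrow band, from 131 to 159.5 CPM. In SL it held 144, 140.5, 180.4 and 149 CPM at ZT0, 164, 156, 164 and 154 at ZT6, 139, 136, 139 and 144 at ZT12, and 132, 136, 129 and 130.6 at ZT18. In LL it held 155, 105, 138 and 127 CPM at ZT0, 144, 148, 128 and 128 at ZT6, 174, 167, 69.1 and 172 at ZT12, and 161, 164, 139 and 150.2 at ZT18. The value of 69.1 CPM belongs to the third replicate of LL ZT12, the library that stood apart, and the other 3 of its group lay at 167 to 174 CPM. At ZT6 all 4 SL libraries lay above all 4 LL libraries, with a log2 difference of 0.22 ± 0.16 (SE, adjusted p = 0.412). At ZT18 all 4 SL libraries lay below all 4 LL libraries, with a log2 difference of -0.22 ± 0.16 (adjusted p = 0.481). With all libraries, no comparison called Gbe1: the adjusted p was 0.541 and 0.66 for time of day in SL and LL and 0.272 for the interaction.

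In a fit of the SL libraries alone, Gbe1 was called for time of day (adjusted p = 0.013). Without the third replicate of LL ZT12 it was called for time of day in SL (adjusted p = 0.0322) and LL (0.00514), for the interaction (0.000341), and at 2 single times. It was then higher in SL at ZT6 by 0.23 ± 0.08 (SE, adjusted p = 0.0433) and lower at ZT12 by a log2 difference of -0.29 ± 0.09 (adjusted p = 0.0306). With all libraries the ZT12 difference was -0.06 ± 0.16 (adjusted p = 0.858). Without all 3 libraries that stood apart, the ZT18 difference passed as well (-0.28, adjusted p = 0.0107). It also passed in a fit of the ZT18 libraries alone, with none left out (-0.22, adjusted p = 0.0476).

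Pygl, which breaks glycogen down, stayed within a narrow range. In SL it held 485, 506, 499.9 and 472 CPM at ZT0, 459, 449, 451 and 504 at ZT6, 508, 513, 545 and 527 at ZT12, and 551, 533, 516 and 552 at ZT18. In LL it held 506, 467, 528 and 527 CPM at ZT0, 503, 538, 536 and 505 at ZT6, 465, 493, 347 and 484 at ZT12, and 551, 538, 463 and 535 at ZT18. The lowest value, 347 CPM, again belongs to the third replicate of LL ZT12. All neighbours in the order of group means overlapped, and the highest SL time was 1.15-fold over the lowest. Time of day was not called in SL (adjusted p = 0.182) or LL (0.106). The SL value was 0.0255 without the third replicate of LL ZT12 and 0.0316 in a fit of the SL libraries alone. The LL value was 0.048 without LL ZT18 replicate 3.

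At ZT12 all 4 SL libraries of Pygl lay above all 4 LL libraries, with a log2 difference of 0.23 ± 0.08 (SE, adjusted p = 0.0558). Without the third replicate of LL ZT12 it was 0.13 ± 0.06 (adjusted p = 0.195). It passed without LL ZT12 replicate 2 (0.28, adjusted p = 0.0295), LL ZT12 replicate 4 (0.27, 0.0298) or LL ZT18 replicate 3 (0.23, 0.0402). With all libraries the ZT12 difference passed in DESeq2 (adjusted p = 0.0311), in limma-voom (0.0441) and in edgeR with a stricter filter on low counts (0.0459). Without the 3 libraries that stood apart, Pygl was lower in SL at ZT6 (-0.15, adjusted p = 0.0246). The interaction passed at an adjusted p of 0.0409, was lost when single libraries were left out in 13 of 32 fits (0.0214 to 0.0823), and had an adjusted p of 0.229 with no filter on low counts. The wave through the 4 times had a log2 amplitude of 0.11 in SL and 0.10 in LL (SE 0.04).

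The ratio of Gys2 to Pygl reads within a library sets synthase against phosphorylase mRNA and does not depend on scaling between libraries. It is a ratio of reads, not corrected for length. At ZT0 it was 0.611 ± 0.101 in SL and 0.275 ± 0.0197 in LL (SD, n = 4), and at ZT6 0.623 ± 0.118 and 0.312 ± 0.0416. At ZT12 it was 0.328 ± 0.0221 in SL and 0.714 ± 0.186 in LL, and at ZT18 0.273 ± 0.0101 and 0.427 ± 0.0248. The ratio was thus higher in SL at ZT0 and ZT6 and lower at ZT12 and ZT18, and the photoperiods did not overlap at any time. Each comparison gave p = 0.0286 in an exact two-sided permutation test, the smallest value that 4 against 4 allows (70 arrangements), and 0.0286 after adjustment over the 4 times. The highest single ratio, 0.981, was that of the third replicate of LL ZT12, and the other libraries of that group were at 0.568 or more.

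**Figure D3:**
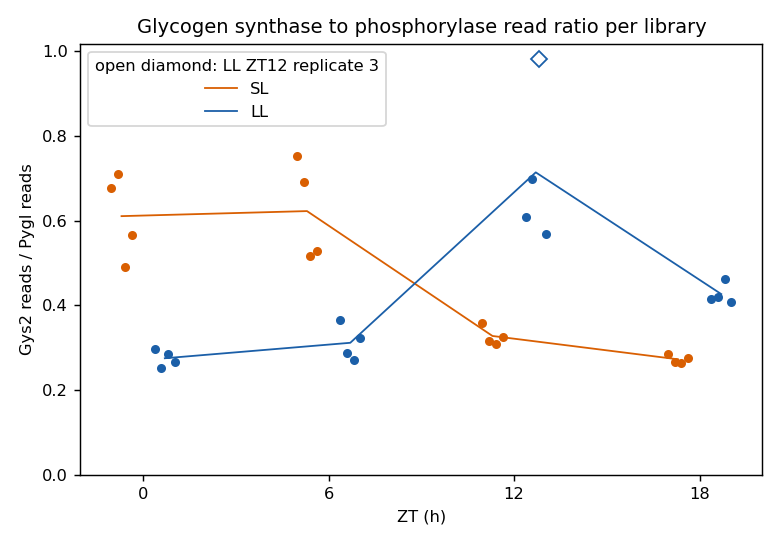
Ratio of Gys2 to Pygl reads (vertical axis, linear, from 0) against zeitgeber time in h. Points are single libraries, 4 per group, the open diamond is LL ZT12 replicate 3, and lines join the group means. SL lies above LL at ZT0 and ZT6 and below it at ZT12 and ZT18, with no overlap at any time.

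Ppp1r3b, the classical liver PP1 subunit, was highest at ZT6 in SL and at ZT18 in LL. In SL it held 293, 406, 319.8 and 265 CPM at ZT0, 505, 605, 509 and 577 at ZT6, 438, 366, 364 and 384 at ZT12, and 220.1, 308, 403 and 322 at ZT18. In LL it held 363, 344, 297 and 432 CPM at ZT0, 366, 324, 334 and 220.2 at ZT6, 497, 409, 307 and 458 at ZT12, and 552, 411, 482 and 480.4 at ZT18. Neighbouring group means overlapped throughout, but SL and LL were apart at ZT6, with SL above, and at ZT18, with LL above. At ZT6 SL had 549 ± 49.8 CPM and LL 311 ± 63.0 (SD, n = 4), a log2 difference of 0.82 ± 0.16 (SE, 1.77-fold, adjusted p = 0.000627). At ZT18 it was 313 ± 74.7 against 481 ± 57.7 CPM, a log2 difference of -0.62 ± 0.16 (adjusted p = 0.0132). ZT0 (-0.16 ± 0.16, adjusted p = 0.608) and ZT12 (-0.11 ± 0.16, adjusted p = 0.73) did not pass.

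The change of Ppp1r3b with time had an adjusted p of 0.00081 in SL, where the highest time was 1.75-fold over the lowest, and of 0.0268 in LL, where it was 1.55-fold. Its fitted wave had its peak at 7.26 ± 0.77 h for SL and at 16.81 ± 1.0 h for LL, later than that of Gys2 in each. The ZT18 call was lost without LL ZT18 replicate 1 (adjusted p = 0.0547) or SL ZT18 replicate 1 (0.0709). The LL time call was lost without LL ZT18 replicate 1 (0.0829) or LL ZT6 replicate 4 (0.08), and in a fit of the LL libraries alone (0.0531).

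Ppp1r3c, which encodes protein targeting to glycogen, had the largest SL to LL difference of the 6 well-covered genes, and it ran opposite to Gys2. In SL it held 82.0, 103.6, 32.9 and 45.6 CPM at ZT0, 48.9, 74.0, 63.0 and 53.9 at ZT6, 196, 164, 179 and 189 at ZT12, and 159, 184, 188 and 182 at ZT18. In LL it held 222, 209.5, 205 and 265 CPM at ZT0, 88.4, 136, 120.2 and 126 at ZT6, 37.9, 37.4, 23.7 and 31.7 at ZT12, and 122, 64.1, 137 and 100.4 at ZT18. LL ZT0 stood above every other group, SL ZT12 and SL ZT18 came next and overlapped, and LL ZT6, LL ZT18, SL ZT0 and SL ZT6 followed as a chain of overlapping groups. LL ZT12 had the lowest mean and overlapped only SL ZT0. SL and LL did not overlap at any of the 4 times.

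At ZT0 Ppp1r3c had 66.0 ± 32.6 CPM in SL and 226 ± 27.5 in LL (SD, n = 4), a log2 difference of -1.77 ± 0.24 (SE, adjusted p = 4.07e-06). At ZT6 the difference was -0.98 ± 0.23 (adjusted p = 0.00377). At ZT12 it turned, with 182 ± 13.8 CPM in SL and 32.7 ± 6.63 in LL, a log2 difference of 2.48 ± 0.25 or 5.57-fold (adjusted p = 1.77e-08). At ZT18 it was 0.75 ± 0.23 (adjusted p = 0.0367). The ZT18 call was lost on leaving out any 1 of LL ZT18 replicates 2 (0.57, adjusted p = 0.157) and 4 (0.0868) and SL ZT18 replicates 2 (0.0789), 3 (0.0808) and 4 (0.0773). The other 3 times kept their calls in every fit with 1 library left out. The highest time was 3.03-fold over the lowest in SL (ZT12 over ZT6) and 6.91-fold in LL (ZT0 over ZT12), with adjusted p = 8.78e-07 and 1.70e-08 for time of day. The fitted log2 amplitude was 1.13 in SL and 1.40 in LL (SE 0.13), and the difference between these amplitudes was not tested.

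Promoter sequences are shown for Ppp1r3c and Ppp1r3g, a subunit pair picked for its opposite courses in these data. They are RefSeq sequences of build GRCm38.p6, both lying within the 250 bases before a RefSeq start of transcription, without bases that GENCODE M21 annotates as exon. The Ppp1r3g start used is internal to the gene as GENCODE annotates it, downstream of its first annotated exon. The Ppp1r3c start used is internal as well. Its 250 bases are chr19:36736605-36736854, and the annotated gene reaches to 36736653. So is 1 of the Ugp2 starts, whose 250 bases are chr11:21370630-21370879 in a gene that reaches to 21371201. Of the 7 genes, 5 were matched in the promoter table, with 6 starts in all since Ugp2 has 2, and Gys2 and Ppp1r3b were not. Capitals mark the E-box CACGTG, the binding motif of the clock activators, and its variant CACGTT. The Ppp1r3c stretch is chr19:36736654-36736854 (minus strand, 201 bases) and the Ppp1r3g stretch chr13:35967656-35967852 (plus strand, 197 bases), each written 5′ to 3′.
Ppp1r3c: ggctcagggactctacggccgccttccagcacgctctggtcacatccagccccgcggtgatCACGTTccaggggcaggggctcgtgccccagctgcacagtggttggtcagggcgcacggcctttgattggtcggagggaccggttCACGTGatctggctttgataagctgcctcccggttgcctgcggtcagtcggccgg
Ppp1r3g: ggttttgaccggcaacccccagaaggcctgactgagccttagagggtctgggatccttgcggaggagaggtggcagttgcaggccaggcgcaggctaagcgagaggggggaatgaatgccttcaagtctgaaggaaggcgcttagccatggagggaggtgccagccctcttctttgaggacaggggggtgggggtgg

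CACGTG began 104 bases before the RefSeq start used for Ppp1r3c and CACGTT 189 bases before it, and neither was found before the starts of the other 4 matched genes. Both strands of the 250 bases were searched. CACGTG was held by 6.02% of all 32851 promoters of the same length and CACGTT by 3.85%. AGGTCA, a nuclear receptor recognition element, was found before Pygl alone (128 bases from the start, as TGACCT), and is held by 4607 of the 32851 promoters. The Pygl start used is also internal to the gene as GENCODE annotates it. Its 250 bases are chr12:70227684-70227933 (minus strand), and the annotated gene reaches to 70231488. The D-box TTATGTAA (0.819% of promoters) and the cAMP response element TGACGTCA (1.55%) were found before none of the 5 genes. These matches describe the letters of the reference sequence, and binding was not measured. A link between the letters and the rhythms was not tested.

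Ppp1r3g was the subunit with the lowest level per kb and the widest relative range. In SL it held 1.76, 2.76, 3.22 and 0.945 CPM at ZT0, 2.94, 3.19, 6.86 and 1.37 at ZT6, 0.432, 0.779, 0.388 and 0.27 at ZT12, and 0.711, 0.193, 0.441 and 0.0621 at ZT18. In LL it held 0.513, 0, 1.21 and 0.266 CPM at ZT0, 0.275, 0.441, 0.251 and 1.87 at ZT6, 2.97, 3.63, 8.62 and 2.99 at ZT12, and 1.42, 2.05, 1.80 and 1.32 at ZT18. The higher group means fell in SL at ZT0 and ZT6 and in LL at ZT12 and ZT18, as for Gys2. Single libraries did not separate in this way. LL ZT6 replicate 4 (1.87 CPM) lay within the range of LL ZT18, and LL ZT0 replicate 3 (1.21) above SL ZT0 replicate 4 (0.945). SL and LL overlapped at ZT0 and ZT6, and the highest LL ZT12 value was that of the third replicate.

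The log2 difference of Ppp1r3g was 2.36 ± 0.72 (SE) at ZT0 (adjusted p = 0.0295) and 2.27 ± 0.57 at ZT6 (adjusted p = 0.00537). It was -3.30 ± 0.64 at ZT12 (adjusted p = 0.000544), where SL had 0.468 ± 0.219 CPM and LL 4.55 ± 2.73 (SD, n = 4), and -2.20 ± 0.71 at ZT18 (adjusted p = 0.0479, and 0.0819 in limma-voom). The highest time was 10.2-fold over the lowest in SL (ZT6 over ZT18) and 9.16-fold in LL (ZT12 over ZT0), with adjusted p = 0.000291 and 0.000301 for time of day. The ZT0 call was lost without any 1 of 5 libraries: LL ZT0 replicates 1 (0.0642), 2 (0.116) and 4 (0.0859), and SL ZT0 replicates 2 (0.0607) and 3 (0.0942). It was lost as well without the 3 libraries that stood apart (1.85, adjusted p = 0.0731). The ZT6 call was lost without SL ZT6 replicate 3 (1.72, adjusted p = 0.0553), and the ZT18 call was lost in 19 of the 32 fits with 1 library left out (0.0257 to 0.143).

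Gys2, Ppp1r3c and Ppp1r3g exchanged their high and low times between photoperiods, but not all 7 genes did. Pygl had its highest mean at ZT18 in both, 538 CPM in SL and 522 in LL. Each SL group was also set beside the LL group taken 12 h later in the cycle, an offset chosen with earlier results of these data known. In that alignment the differences that remained over time were called in 1 of the 7 genes, Ppp1r3c (adjusted p = 0.00737), against 75 of all genes, or 0.519%. Without the third replicate of LL ZT12 its adjusted p was 0.0118 (1.03% of all genes called), and without the 3 libraries that stood apart 0.0281 (1.33%), and it remained the 1 gene of the 7 that was called. For the other 6 genes it was between 0.23 (Gys2) and 0.977 (Gbe1), which does not show that their aligned courses were the same. The mean CPM of Ppp1r3c was 66.0 in SL ZT0 and 32.7 in LL ZT12, 60.0 in SL ZT6 and 106 in LL ZT18, 182 in SL ZT12 and 226 in LL ZT0, and 178 in SL ZT18 and 118 in LL ZT6. The last 2 of these pairs did not overlap. Gys2 did not overlap between SL ZT6 and LL ZT18 (289 and 222 CPM) or between SL ZT12 and LL ZT0 (171 and 139.8 CPM).

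The fitted peak time of SL minus that of LL, taken the short way round the 24 h cycle, was -10.08 h for Gys2, -9.54 h for Ppp1r3b, -9.28 h for Ppp1r3c, -9.78 h for Ppp1r3g, -10.46 h for Ugp2 and -7.60 h for Pygl. The SE of a single peak time ran from 0.36 h (Gys2) to 1.49 h (Pygl in LL), and was 0.93 h in SL and 1.05 h in LL for Ugp2. No test was made of these shifts against 12 h, and with 4 times per cycle an advance and a delay by the rest of the cycle cannot be told apart. A difference of the 24 h rhythm between photoperiods was called in 6 of 7 genes, against 36.0% of all genes. It was 2.82e-12 for Gys2, 3.66e-11 for Ppp1r3c, 1.85e-06 for Ppp1r3g, 5.21e-05 for Ppp1r3b, 0.000266 for Ugp2, 0.0477 for Pygl and 0.168 for Gbe1 (edgeR adjusted p). The amplitude of Gbe1 was no larger than 0.15 with an SE of 0.09, so no peak time is read for it. The Pygl call was lost in 23 of 32 fits with 1 library left out.

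**Figure D4:**
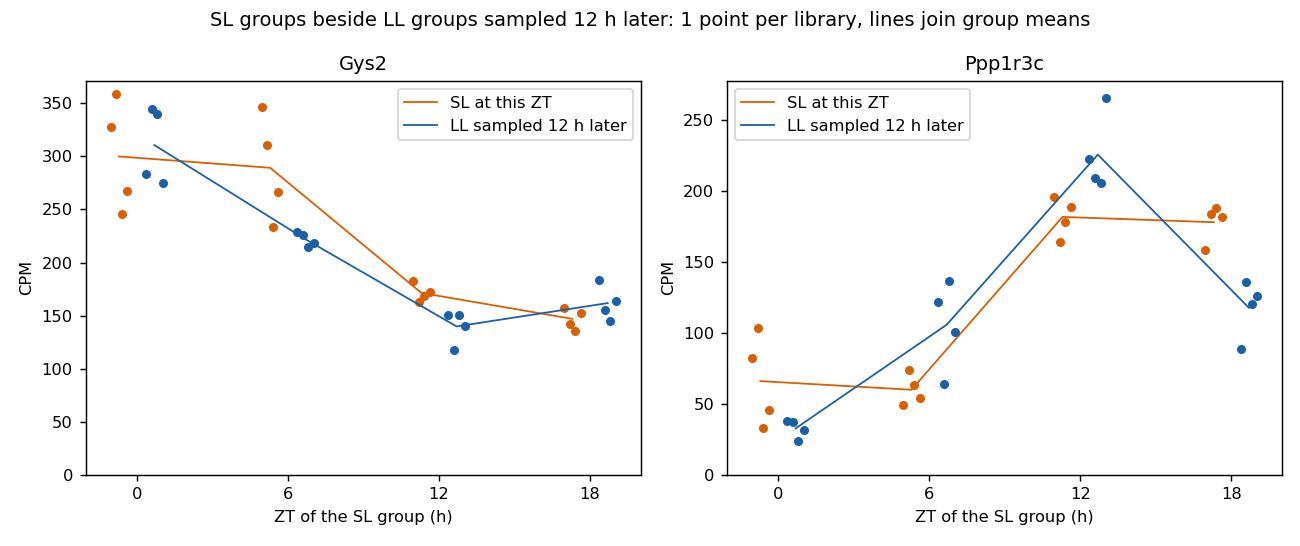
CPM (vertical axis, linear, from 0) of Gys2 and Ppp1r3c against zeitgeber time of the SL group in h, with the LL group taken 12 h later drawn at the same place. Points are single libraries, 4 per group, and lines join group means. The lowest group mean of Ppp1r3c was 32.7 CPM in LL (ZT12) and 60.0 in SL (ZT6), which are not drawn at the same place, and the highest was 226 CPM in LL (ZT0) and 182 in SL (ZT12), which are.

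Other genes of the pathway were read from a list of 30 names (glycogenin, debranching and muscle forms of the enzymes, phosphorylase kinase, further PP1 subunits, phosphoglucomutase, and glucose 6-phosphate handling), of which 29 were in the table and 25 were tested. Time of day was called in 5 of 25 in SL and 6 of 25 in LL, and the interaction in 8 of 25, against 19.1%, 18.3% and 32.7% of all genes. At ZT0, 3 were higher in SL and 0 were lower, beside 11% of all genes called. At ZT6, 2 were higher and 3 lower (15.3% of all genes called), at ZT12 0 were higher and 1 lower (12.4%), and at ZT18 0 were higher and 4 lower (9.21%). The median difference over the list was 0.07, 0.05, 0.04 and -0.01. For the average over the 4 times the edgeR test called 0 of 25, with 3 at an unadjusted p under 0.05, and DESeq2 and limma-voom called 0.

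Slc37a4, the transporter that carries glucose 6-phosphate into the endoplasmic reticulum, had the smallest interaction p of this list (adjusted p = 2.53e-07) and followed the direction of Gys2 at a smaller size. It had 193 ± 25 CPM in SL and 148 ± 6.89 in LL at ZT0, 213 ± 11 and 148 ± 17.7 at ZT6, 167 ± 14.7 and 186 ± 9.33 at ZT12, and 154 ± 14.2 and 217 ± 15.2 at ZT18 (SD, n = 4). The log2 difference was 0.38 ± 0.09 at ZT0 (SE, adjusted p = 0.00441), 0.53 ± 0.09 at ZT6 (adjusted p = 7.61e-05) and -0.49 ± 0.09 at ZT18 (adjusted p = 0.000325). ZT12 did not pass (-0.16, adjusted p = 0.266).

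Stbd1, a glycogen-binding protein linked to glycogen turnover in lysosomes, was higher in SL at ZT0, with 121 ± 19.1 against 66.8 ± 4.91 CPM (log2 difference 0.86 ± 0.12, adjusted p = 4.31e-06, interaction 5.59e-06). Pgm1, a phosphoglucomutase, was higher in SL at ZT6 (0.24 ± 0.06, adjusted p = 0.00581) and lower at ZT18 (-0.27 ± 0.06, adjusted p = 0.00313). Phka2, the liver alpha subunit of phosphorylase kinase, was higher in SL at ZT0 (0.25, adjusted p = 0.0238) and lower at ZT6 (-0.27, adjusted p = 0.00932) and ZT12 (-0.22, adjusted p = 0.0475). Gckr was lower in SL at ZT6 (-0.41 ± 0.07, adjusted p = 0.000204). Pygm, the muscle phosphorylase, was called for time of day in LL (adjusted p = 0.00429) and stood at 3.08, 3.81, 8.70 and 1.32 CPM at LL ZT18, with 5.74 CPM for replicate 2 of LL ZT0. Those libraries also held the high muscle marker sums given above, and the part of muscle RNA in the Pygm call was not tested. The muscle PP1 subunit gene Ppp1r3a was among the 4 listed genes in the table that were too low to test.

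The genes most like each of the 7 over all 32 libraries were found by Pearson correlation of log2 CPM among 11544 genes with a mean of at least 1 CPM. The points share library depth and the 8 groups, so these values are a description. Gys2 was followed by Stard5 (r = 0.94) and Fam102a (0.94), and Ppp1r3g by Stard5 (0.87), Lpin2 (0.86) and Optn (0.84). Ppp1r3c was followed by Dtx4 (0.94), Clpx (0.93) and Eps8l2 (0.93), and Ppp1r3b by Fgf1 (0.85), Wdr82 (0.84) and Akr1d1 (0.83). Stard5 thus stood in the lists of both Gys2 and Ppp1r3g. Pygl was nearest to Ern1 (0.86), Fam210b (0.83) and Heatr3 (0.83), Gbe1 to Pcyox1 (0.93), Pcyt1a (0.91) and Cul4a (0.90), and Ugp2 to Atp1b1 (0.74), Tlr5 (0.73) and Fam172a (0.73). Among the 7 genes themselves, r was 0.82 for Gys2 with Ppp1r3g, -0.82 for Gys2 with Ppp1r3c and -0.77 for Ppp1r3c with Ppp1r3g. It was 0.60 for Pygl with Ppp1r3c, -0.54 for Gys2 with Pygl and 0.37 for Gys2 with Ppp1r3b.

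All 7 are protein-coding genes, and reads were assigned to them as whole genes. In GRCm38 with GENCODE M21 annotation, Gys2 (ENSMUSG00000030244) lies at chr6:142422613-142473109 on the minus strand, and Pygl (ENSMUSG00000021069) at chr12:70190811-70231488, minus. Ugp2 (ENSMUSG00000001891) lies at chr11:21321138-21371201, minus, and Gbe1 (ENSMUSG00000022707) at chr16:70313949-70569716, plus. Ppp1r3b (ENSMUSG00000046794) lies at chr8:35375739-35388139, plus, Ppp1r3c (ENSMUSG00000067279) at chr19:36731731-36736653, minus, and Ppp1r3g (ENSMUSG00000050423) at chr13:35958839-35970388, plus. An opposite-strand gene overlaps 4 of them: F730035M05Rik at Pygl, Gm45469 at Ppp1r3b, Gm30127 at Ppp1r3g and Gm12043 at Ugp2. The library kit marks strand, but the strand setting of the counting was not given in the sources used here. Over all libraries Gm30127 had 99 reads against 976 for Ppp1r3g, and the other 3 had 368, 738 and 21 reads against 259984 for Pygl, 203292 for Ppp1r3b and 212927 for Ugp2.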

How the data were processed

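The authors deposited raw read counts per gene for all 32 libraries. Per the submitters' processing notes, reads were handled with bcl2fastq (2.20.0), STAR (2.7.2b) and the counter featureCounts (1.6.2) on build GRCm38 (mm10). Annotation, strand setting and the treatment of multimapping reads: not given in the sources used here. A second table, also deposited by the authors, holds log2 values of 13432 genes, made in a way the sources do not give. It supplied gene symbols and 1 alternative test.

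Counts were tested with edgeR 4.0.16 (R 4.3.3) in a group-means model over 8 groups, with TMM factors and filterByExpr, and p-values were adjusted by Benjamini-Hochberg over 14456 genes. CPM are TMM-scaled, and log2 CPM used a prior count of 2. The fit was run on simulated data with genes changed in SL ZT6 alone, and the outcome is not given here. No outlying library was simulated, so it does not bear on calls that change with LL ZT12 replicate 3. Named genes were the 7 genes, the 6 other glycogen genes with the smallest interaction p, and the 3 genes most correlated with each of the 7, leaving out clone and predicted names. Of the genes this rule names, 2 are not reported here. Pygm and Ppp1r3a were named after their values were seen. Genes and lists were chosen with earlier results of these data known. Alternatives were DESeq2 1.42.0, limma 3.58.1 (voom, and the deposited log2 values), other scalings and filters, fits of subsets, a replicate block and leaving out each library. The set of 3 libraries left out together was chosen after seeing the data.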

Additional observations from a re-analysis of the deposited data

Results flagged for a closer look

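For 6 of the 7 genes the difference between SL and LL itself differed between the 4 times (edgeR interaction test, adjusted over 14456 genes, where 32.7% of genes passed). The adjusted p was 1.15e-11 for Gys2, 1.21e-10 for Ppp1r3c, 3.78e-06 for Ppp1r3g, 0.000116 for Ppp1r3b, 0.000636 for Ugp2 and 0.0409 for Pygl.

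Among the 56 sets of 4 libraries (7 genes in 8 groups), 3 had 1 library far from the other 3. The gap to the nearest library was 0.940 of the group's range for Gbe1 in LL ZT12, where replicate 3 had 69.1 CPM and the next 167. It was 0.884 for Ppp1r3g in LL ZT12, where replicate 3 had 8.62 CPM and the next 3.63, and 0.883 for Ppp1r3g in LL ZT6, where replicate 4 had 1.87 CPM and the next 0.441. Each passed Dixon's 95% critical value for 4 values, which chance passes in about 1 in 20 sets.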

How the results depend on the processing

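Most results kept direction and call. In a fit of the LL libraries alone, time of day in LL was called in 3 of the 7 genes and in 1655 of the 14044 genes tested. With all libraries these were 5 of the 7 and 2650 of 14456, so the fall was not confined to these 7 genes. In a fit of the SL libraries alone, time of day in SL was called in 7 of the 7. That fit of the SL libraries tested 13921 genes and called a larger share of them than the 19.1% called with all libraries. The rise was thus not confined to these 7 genes. A fit of ZT12 alone called 723 genes. For the average over times, genes called in all were 6 with DESeq2, 9 with no filter and 2 without the 3 libraries that stood apart. For the 12 h alignment they were 228, 250 and 194. The log2 difference of Gbe1 at ZT12 turned to 0.03 with limma on the deposited log2 values and 0.03 with limma-voom. Without the 3 libraries, Pygl at ZT18 turned to -0.02, and the averages of Pygl and Gbe1 to -0.03 and -0.05.

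Leaving out each library in turn, the number of the 7 genes called (and of all genes) ranged from 4 to 7 (2312 to 3929) for time of day in SL, 3 to 6 (2323 to 3152) in LL, 2 to 4 (1115 to 2255) at ZT0, 3 to 5 (1636 to 3053) at ZT6, 4 to 5 (1316 to 2341) at ZT12 and 2 to 4 (975 to 1980) at ZT18. It was 0 to 0 (0 to 3) for the average, 5 to 7 (4327 to 5651) for the interaction, 1 to 1 (55 to 150) for the 12 h alignment and 5 to 7 (4870 to 6011) for the rhythm difference. The log2 difference of the Gys2 to Pygl ratio ranged from 1.06 to 1.24 at ZT0, 0.89 to 1.07 at ZT6, -1.19 to -0.93 at ZT12 and -0.67 to -0.61 at ZT18. An exact permutation test of 3 against 4 cannot go below p = 0.0571. Signs turned for Gbe1 at ZT12 (-0.29 to 0.04), Pygl at ZT18 (-0.02 to 0.07) and the averages of Pygl (-0.01 to 0.03), Ppp1r3b (-0.05 to 0.02), Ppp1r3g (-0.38 to 0.08) and Gbe1 (-0.01 to 0.07). The cause was not tested.

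Same-numbered libraries did not deviate together (mean r -0.00 over 112 pairs, from -0.26 to 0.24; 9 of 32 libraries correlated best with their own number). A replicate block changed 1 count of the 7 genes, at ZT18 (3 called in place of 4, with Ppp1r3c at 0.74 and an adjusted p of 0.053). With the block the ratio differences were 1.14, 0.99, -1.09 and -0.64, each at p = 0.125 in the exact sign-flip permutation test, the smallest that 4 pairs allow. Depth limits Ppp1r3g most, with 0 to 191 reads per library.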
